A study of Homo sapiens with 15 samples.

Results

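Aminoacyl-tRNA synthetases attach each amino acid to its tRNA, so they stand between the amino acid pool of a cell and its ribosomes. The 37 genes described here encode 19 cytosolic synthetase chains (AARS1 to YARS1, with FARSA and FARSB as the chains of phenylalanyl-tRNA synthetase), 16 mitochondrial synthetases (AARS2 to YARS2) and 2 scaffold proteins, AIMP1 and AIMP2, of the cytosolic multisynthetase complex. They were taken by symbol from 62754 genes of the count table, and all 37 were among the 13828 genes with enough counts to be tested. RNA came from MCF10A, an established line of non-tumour human breast epithelial cells, labelled wild type in every group. Cells grew in DMEM/F12 with growth supplements and normal glutamine (2.5 mM, full medium), or in its glutamine-free form with glutamine added to 0.04 mM, 0.12 mM, 0.20 mM or 0.28 mM. Each of the 5 groups had 3 biological replicates, so there were 15 libraries. The length of the treatment was not given in the sources used here.

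As background, human cells keep largely separate sets of synthetases for cytosolic and mitochondrial translation, all of them encoded in the nucleus. GARS1 and KARS1 each supply both compartments from a single gene, and cytosolic EPRS1 joins the glutamate and proline enzymes in 1 protein. Cytosolic glutamine tRNA is charged directly by QARS1. In mitochondria, EARS2 first puts glutamate on that tRNA, and an amidotransferase made of QRSL1, GATB and GATC then turns the glutamate into glutamine, using free glutamine as nitrogen donor. Many cytosolic synthetase genes are known targets of ATF4, the transcription factor of the amino acid response.

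Gene counts per library ran from 3704170 to 13361406, and the members together took 0.453 to 0.59% of them. Same-numbered replicates were alike across groups over all tested genes, while among the members alone 26 of 30 such pairs correlated over 0.1. Log2 fold changes and standard errors (SE) therefore come from an edgeR quasi-likelihood fit that holds replicate number as a term. The words rose and fell are kept for genes whose Benjamini-Hochberg adjusted p over all 13828 genes was under 0.05 in that fit. The planned fit without that term called 0 members in each comparison with full medium. In that fit 6, 4, 6 and 1 of 37 members had an unadjusted p under 0.05, from the lowest to the highest concentration. Of all 13828 genes, 1609, 1111, 1415 and 616 did so in the same order. DESeq2 without the term called 0 members as well. Levels are given as CPM, the count scaled to the TMM-adjusted library total. Summed over 8 markers of epithelial cells, libraries held 13400 to 21700 CPM, and 4 immune markers 1.15 to 2.86 CPM with CD3E at 0. The 5 fibroblast markers summed to 32.7 to 45.4 CPM in full medium and 50.3 to 60.9 CPM at 0.04 mM with LUM at 0, and the 3 endothelial markers to 3.34 to 5.56 and 4.92 to 11.9 CPM with CDH5 at 0. Of these, DCN and PECAM1 were higher than in the same-numbered full medium library in 12 of 12 limited libraries. The other markers of these 2 lists were higher in 9 (COL1A1), 4 (PDGFRA), 3 (COL1A2), 2 (VWF) and 0 (LUM and CDH5). PDGFRA, COL1A2 and VWF were at 0.468 CPM or lower in every library. The part of these markers in the members' values was not tested. Mitochondrial rRNA was under 1% of counts except in replicate 3 at 0.04 mM (2.97%) and at 0.12 mM (1.62%). The labels do not say what a replicate number stands for, and a lower share of a transcript in bulk RNA does not tell fewer molecules per cell from fewer cells that carry it.

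Low glutamine left most synthetase transcripts near their level in full medium, and the changes that passed the test were small and almost all downward. At 0.04 mM, 7 members fell and 1 rose. FARSA, VARS1 and KARS1 fell among the cytosolic enzymes, LARS2, AARS2, TARS2 and EARS2 fell among the mitochondrial ones, and GARS1 rose. Of all tested genes 6.23% fell, 7.21% rose and 0.0434% were called without the replicate term, against 18.9% and 2.7% of the members for falls and rises. At 0.12 mM, FARSA, VARS1 and EARS2 fell (8.11% of members, with 3.9% of all genes), and 0 rose (4.41% of all genes). At 0.20 mM, FARSA, VARS1, WARS1, AARS2, EARS2 and TARS2 fell (16.2% of members, with 7.15% of all genes), and 0 rose (7.67% of all genes). At 0.28 mM, FARSA alone among the members fell (2.7% of members, with 0.846% of all genes), and 0 rose (1.23% of all genes). Without the replicate term, 0% of all genes were called at 0.12 mM and at 0.28 mM, and 0.0145% at 0.20 mM. The 4 comparisons use the same 3 full medium libraries, so they are not independent of each other. In all there were 18 calls in 9 members. All 17 falls were between -0.19 and -0.42 on the log2 scale. They were lower in 3 of 3 replicate pairs, which a fit within replicate numbers favours, so this is not separate evidence. Without the replicate term their adjusted p, and that of the rise, ran from 0.221 to 1. Scaled to the ERCC spike-ins in place of TMM, 0 members passed at 0.04 and 0.28 mM, with FARSA at -0.35 and -0.42. FARSA, VARS1, AARS2, EARS2, LARS2 and TARS2 then fell at 0.12 mM, and FARSA and AARS2 at 0.20 mM. Fitted with only the 2 groups compared, FARSA kept its call at all 4 concentrations and 7 of the 18 calls were lost. These were GARS1 (0.22), KARS1 (-0.20), AARS2 (-0.32), EARS2 (-0.29) and TARS2 (-0.30) at 0.04 mM, VARS1 at 0.12 mM (-0.35) and WARS1 at 0.20 mM (-0.21). With no filter on low counts, the calls of GARS1 at 0.04 mM (0.21) and WARS1 at 0.20 mM (-0.21) were lost.

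**Figure D1:**
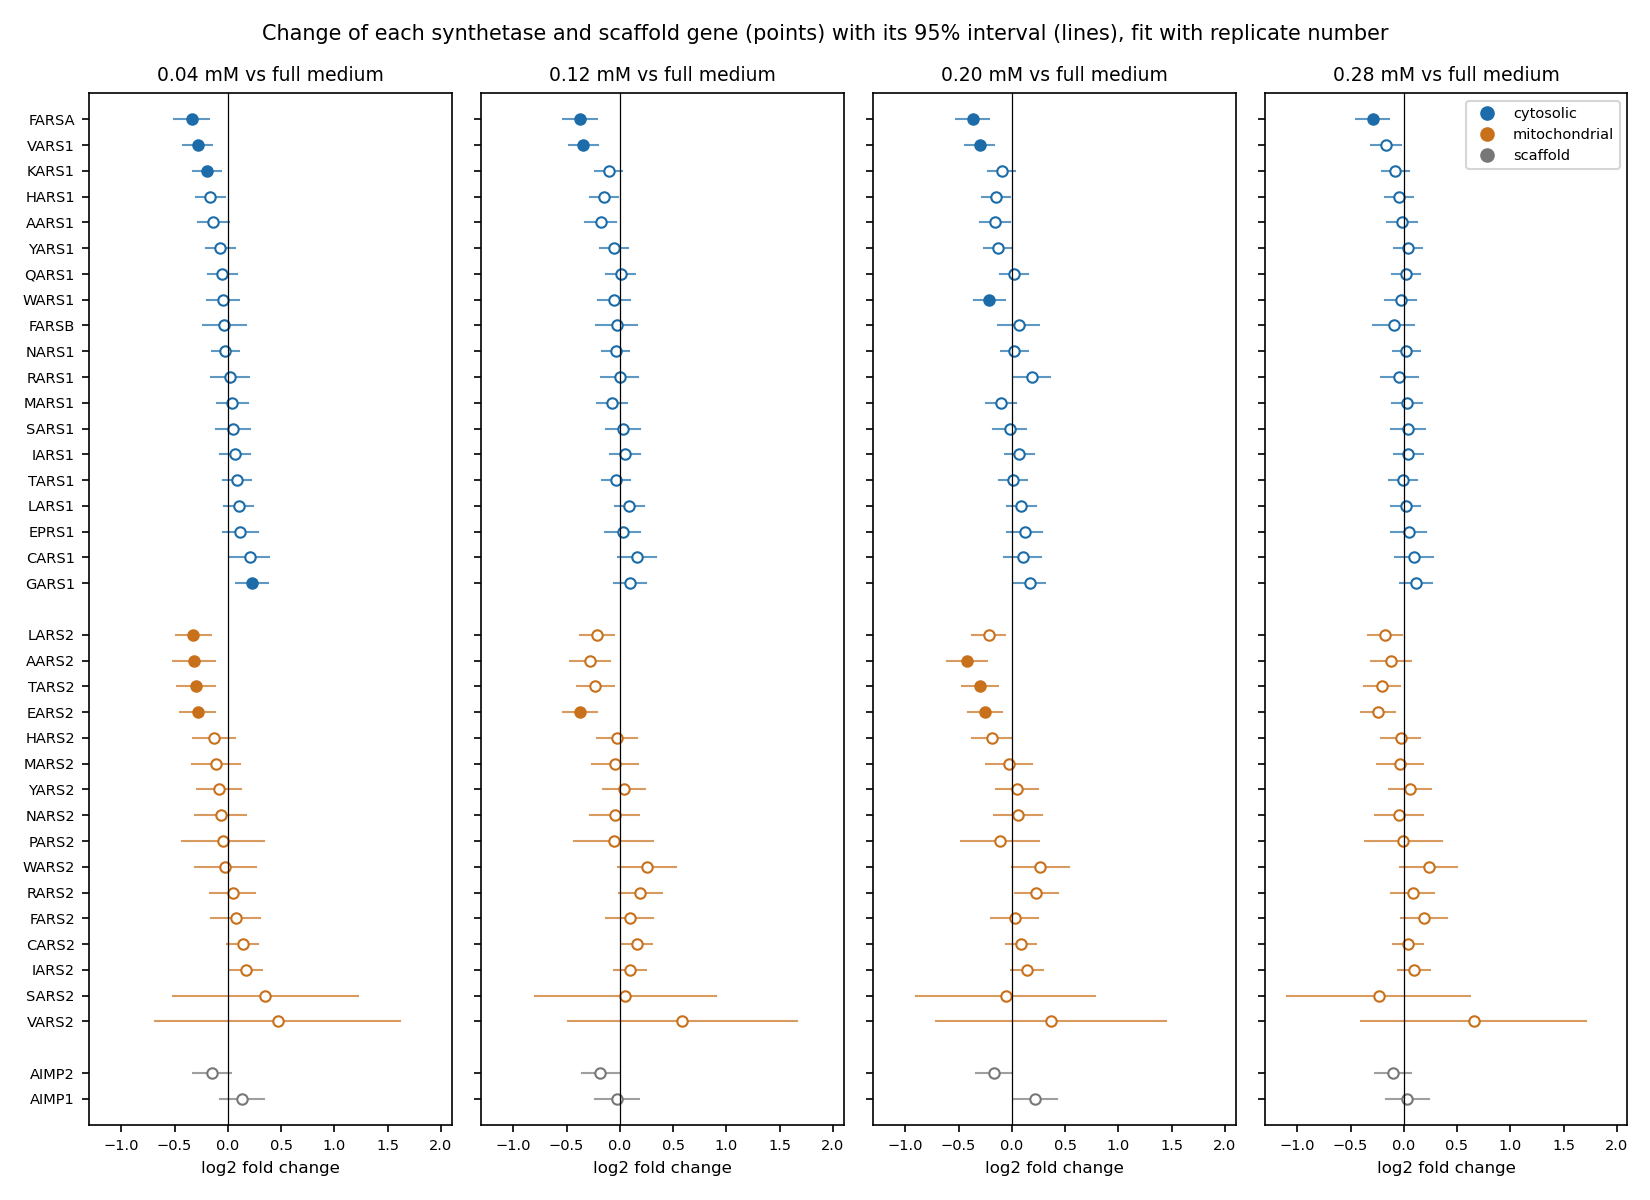
Log2 fold change against full medium (x axis) of the 37 genes (y axis, ordered within class by the value at 0.04 mM), with points for estimates, lines for 95% intervals and filled points for adjusted p under 0.05. FARSA is filled in all 4 panels, and the wide intervals belong to SARS2 and VARS2, the members with the fewest counts.

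FARSA, the catalytic chain of cytosolic phenylalanyl-tRNA synthetase, was the 1 member that fell at all 4 concentrations. The gene (ENSG00000179115) lies at chr19:12922479-12933711, minus strand, in GRCh38.p14. It measured 151, 153 and 141 CPM in replicates 1, 2 and 3 of full medium, and 136, 112 and 103 CPM at 0.04 mM. The libraries at 0.12 mM held 140, 104 and 99.5 CPM, those at 0.20 mM 125, 123 and 97.1 CPM, and those at 0.28 mM 131, 127 and 106 CPM. All 12 limited libraries were below all 3 of full medium, and replicate 1 was the highest in each limited group. The log2 changes were -0.34 at 0.04 mM (SE 0.0787, adjusted p = 0.00359), -0.38 at 0.12 mM (SE 0.0773, adjusted p = 0.00218), -0.37 at 0.20 mM (SE 0.0764, adjusted p = 0.00142) and -0.29 at 0.28 mM (SE 0.0763, adjusted p = 0.0375). No single library ended the calls at 0.04, 0.12 or 0.20 mM. The call at 0.28 mM was lost without any 1 of that group's replicates 1, 2 and 3 (-0.26, -0.33 and -0.28) or without full medium replicate 2 (-0.27) or 3 (-0.23).

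FARSB encodes the partner chain, with which FARSA forms a tetramer. Its libraries held 64.8, 92.5 and 96.4 CPM in full medium and 75.7, 89.7 and 81.3 CPM at 0.04 mM, so the groups overlapped. Its log2 change at 0.04 mM was -0.03 (95% interval -0.23 to 0.17, adjusted p = 0.876), and it passed at no concentration. The log2 ratio of FARSA to FARSB CPM was 0.83 ± 0.35 (SD, n = 3) in full medium, 0.50 ± 0.295 at 0.04 mM, 0.48 ± 0.266 at 0.12 mM, 0.39 ± 0.184 at 0.20 mM and 0.63 ± 0.124 at 0.28 mM, a description with no test. The single mitochondrial enzyme for this amino acid, FARS2, measured 22.4 ± 1.4 CPM (SD, n = 3) in full medium and 23.7 ± 1.59 CPM at 0.04 mM.

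VARS1, the cytosolic valine enzyme, fell at 3 concentrations. It is ENSG00000204394 at chr6:31777518-31795752, minus strand. Full medium libraries measured 402, 316 and 369 CPM, and those at 0.04 mM 344, 274 and 276 CPM. The values were 331, 281 and 245 CPM at 0.12 mM, 340, 281 and 263 CPM at 0.20 mM, and 357, 316 and 295 CPM at 0.28 mM. The groups overlapped, because replicate 1 was high in every group, but within each replicate number the library at 0.04, 0.12 and 0.20 mM was the lower one. The log2 change was -0.28 at 0.04 mM (SE 0.0681, adjusted p = 0.00473), -0.34 at 0.12 mM (SE 0.0676, adjusted p = 0.00151) and -0.30 at 0.20 mM (SE 0.0672, adjusted p = 0.00258). Leaving out any single library ended none of these 3 calls, with log2 changes from -0.41 to -0.20 over the omissions.

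KARS1 encodes the lysine enzyme of both cytosol and mitochondria and is part of the multisynthetase complex (ENSG00000065427, chr16:75627724-75647665, minus strand). Its 3 full medium libraries were close together at 291, 290 and 298 CPM, and those at 0.04 mM held 264, 258 and 246 CPM. The groups did not overlap, and the log2 change was -0.19 (SE 0.0634, adjusted p = 0.0375). At 0.12 mM the libraries held 275, 275 and 269 CPM, at 0.20 mM 289, 289 and 248 CPM, and at 0.28 mM 280, 291 and 260 CPM, and these differences did not pass. The call at 0.04 mM was lost without replicate 1, 2 or 3 of that group (-0.21, -0.18 and -0.20) or full medium replicate 3 (-0.14).

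GARS1, the glycine enzyme of both compartments, was the only member that rose, and only at 0.04 mM (ENSG00000106105, chr7:30594735-30634033, plus strand). Full medium libraries measured 170, 190 and 210 CPM, and those at 0.04 mM 191, 202 and 281 CPM. The groups overlapped, with replicate 3 at 0.04 mM the highest of the 15 libraries, and the log2 change was 0.22 (SE 0.0743, adjusted p = 0.0403). Without that library the change was 0.12 and did not pass. The call was also lost when 0.04 mM replicate 2 (0.27) or full medium replicate 1 or 3 (0.20 and 0.20) was omitted, in the fit of 2 groups (0.22) and with no filter on low counts (0.21). At the other concentrations the libraries held 188, 203 and 213 CPM (0.12 mM), 206, 209 and 222 CPM (0.20 mM) and 192, 184 and 244 CPM (0.28 mM).

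WARS1, the cytosolic tryptophan enzyme, which interferon is known to induce, fell at 0.20 mM only (ENSG00000140105, chr14:100333790-100376327, minus strand). It measured 111, 93.4 and 104 CPM in full medium and 91.2, 76.5 and 100 CPM at 0.20 mM, groups that overlapped (log2 change -0.21, SE 0.0721, adjusted p = 0.0442). At 0.04 mM the libraries held 105, 80.7 and 118 CPM, at 0.12 mM 100, 90.2 and 108 CPM, and at 0.28 mM 103, 91.4 and 109 CPM. The call at 0.20 mM was lost without replicate 1, 2 or 3 of that group (-0.20, -0.20 and -0.25) or full medium replicate 1 or 2 (-0.18 and -0.18), in the fit of 2 groups and with no filter (-0.21 in both). Other genes overlap 10.6% of its exonic length on the opposite strand, and the strand rule of the counting is not given in the sources used here.

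QARS1, which charges glutamine itself in the cytosol and sits in the multisynthetase complex, did not pass at any concentration (ENSG00000172053, chr3:49095932-49104757, minus strand). Its libraries held 173, 140 and 164 CPM in full medium, 154, 151 and 153 CPM at 0.04 mM, 169, 147 and 163 CPM at 0.12 mM, 175, 150 and 158 CPM at 0.20 mM, and 168, 157 and 157 CPM at 0.28 mM. The full medium range contained every limited library but the highest at 0.20 mM. Its log2 change at 0.04 mM was -0.05, with a 95% interval from -0.19 to 0.08 (adjusted p = 0.651), and the other concentrations gave 0.01, 0.02 and 0.02 in rising order.

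Of the 9 genes of the multisynthetase complex (EPRS1, IARS1, KARS1, LARS1, MARS1, QARS1, RARS1, AIMP1 and AIMP2), KARS1 at 0.04 mM gave the only call with all libraries. Their median log2 change was 0.04 at 0.04 mM, 0.000245 at 0.12 mM, 0.07 at 0.20 mM and 0.02 at 0.28 mM. The scaffold genes held 63.7 ± 20.1 CPM (AIMP1, SD, n = 3) and 67.3 ± 2.95 CPM (AIMP2) in full medium, and 68.7 ± 7.78 and 61.3 ± 3.85 CPM at 0.04 mM. AIMP1 did not pass with all libraries, but it rose at 0.04 mM (0.31) and at 0.20 mM (0.40) when full medium replicate 2 was left out. The same omission made RARS1, the arginine enzyme of the complex, rise at 0.20 mM (0.30). AIMP2 is uncertain, because exons of EIF2AK1 on the opposite strand overlap 28.9% of its exonic length. AIMP1 (11.6%, TBCK on the opposite strand) and MARS1 (13.3%, DDIT3 and ARHGAP9 on the opposite strand among them) are overlapped to a lesser extent. By catalytic fold, class I synthetases, which include VARS1, EARS2 and LARS2, had 0 rises and 3 falls among 19 genes at 0.04 mM. Class II synthetases, which include FARSA, KARS1, AARS2 and TARS2, had 1 rise and 4 falls among 17. Of all tested genes 7.21% rose and 6.23% fell at 0.04 mM, and the folds were not compared by a test. EPRS1 is counted in both folds because it holds a domain of each.

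For 27 of the 29 members without a call at 0.04 mM, the 95% interval of the change lay within a 1.5-fold difference in either direction. The same was true of 32 of 34 at 0.12 mM, 29 of 31 at 0.20 mM and 34 of 36 at 0.28 mM. SARS2 and VARS2 were the exceptions in all 4 comparisons. Every called change was also smaller than 1.5-fold, so this bound does not set uncalled members apart from called ones. CARS1, the cysteine enzyme, had a log2 change of 0.20 at 0.04 mM (adjusted p = 0.127) and passed, at 0.29, when full medium replicate 1 was left out. IARS2, the mitochondrial isoleucine enzyme, had 0.17 (adjusted p = 0.116) and passed, at 0.25, without full medium replicate 3. At the other end HARS1, the histidine enzyme, had -0.17 (adjusted p = 0.0979).

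EARS2, which glutamylates both the glutamate and the glutamine tRNA of mitochondria, fell at 3 concentrations. It is ENSG00000103356 at chr16:23520754-23557375, minus strand. Full medium libraries measured 80.1, 83.9 and 85.3 CPM, and those at 0.04 mM 70, 70.4 and 63.2 CPM. The libraries held 66.3, 63.8 and 61.9 CPM at 0.12 mM, 73.5, 71.3 and 63.8 CPM at 0.20 mM, and 65.1, 77.6 and 68.8 CPM at 0.28 mM. All 12 limited libraries were below all 3 of full medium. Log2 changes were -0.28 at 0.04 mM (SE 0.0806, adjusted p = 0.016), -0.37 at 0.12 mM (SE 0.079, adjusted p = 0.00292) and -0.25 at 0.20 mM (SE 0.0773, adjusted p = 0.0243), and the change at 0.28 mM did not pass (adjusted p = 0.0944). The call at 0.12 mM held in each omission of a single library (-0.41 to -0.32). At 0.04 mM it was lost without replicate 2 or 3 of that group or full medium replicate 3 (-0.28, -0.26 and -0.23), and at 0.20 mM without the same replicate numbers (-0.25, -0.22 and -0.20). Glutamine groups held 74.5% of the variance of its log2 CPM over the 15 libraries, the highest such share of the 37 members, and replicate numbers 8.15%. By size of change FARSA moved further at each concentration.

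The genes of the amidotransferase that acts after EARS2 did not pass. QRSL1, its catalytic subunit, measured 28.2, 33 and 28.6 CPM in full medium and 31.8, 34.9 and 33.2 CPM at 0.04 mM, higher in 3 of 3 pairs (log2 change 0.16, 95% interval -0.06 to 0.38, adjusted p = 0.353). It then held 26.4, 37.9 and 34 CPM at 0.12 mM, 28.5, 34 and 35.9 CPM at 0.20 mM and 30.8, 33.3 and 29.6 CPM at 0.28 mM. GATB, which binds the tRNA, measured 33.5, 36.9 and 40.4 CPM in full medium, 35.9, 29.6 and 33.8 CPM at 0.04 mM, 32.8, 26.9 and 32.7 CPM at 0.12 mM, 33.8, 34 and 29.2 CPM at 0.20 mM and 30.3, 33.9 and 29.5 CPM at 0.28 mM. Its log2 changes were -0.15, -0.26, -0.19 and -0.24 in that order, and the 1 at 0.12 mM passed without full medium replicate 1 (-0.37). GATC, the smallest subunit, measured 42.9, 48.1 and 38.5 CPM in full medium, 42.2, 43.9 and 53.8 CPM at 0.04 mM, 45.6, 51.3 and 52.4 CPM at 0.12 mM, 41.7, 51.7 and 54.3 CPM at 0.20 mM and 42.8, 50.3 and 45.5 CPM at 0.28 mM, and it is uncertain because 47.6% of its exonic length is shared with other genes. MTFMT, which formylates the mitochondrial initiator tRNA, changed by -0.20 at 0.04 mM (SE 0.12, adjusted p = 0.298).

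AARS2, the mitochondrial alanine enzyme, fell at 0.04 and 0.20 mM (ENSG00000124608, chr6:44298731-44313347, minus strand). It measured 47.8, 41.9 and 47.8 CPM in full medium, 42.7, 33.6 and 34 CPM at 0.04 mM, 43.1, 37.6 and 31.9 CPM at 0.12 mM, 39.7, 32 and 30.9 CPM at 0.20 mM, and 47.5, 40.5 and 38.6 CPM at 0.28 mM. At 0.20 mM all 3 libraries were below all of full medium (log2 change -0.42, SE 0.0928, adjusted p = 0.00227), and no single omission ended that call. The groups overlapped at 0.04 mM (-0.31, SE 0.0969, adjusted p = 0.0272), where the call was lost without replicate 1, 2 or 3 of that group (-0.35, -0.29 and -0.31) or full medium replicate 3 (-0.22). At 0.12 mM AARS2 passed when full medium replicate 1 was left out (-0.36).

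LARS2, the mitochondrial leucine enzyme, fell at 0.04 mM (ENSG00000011376, chr3:45388576-45549407, plus strand). Full medium libraries measured 80.7, 77.6 and 101 CPM, with replicate 3 apart from the others, and those at 0.04 mM 69.2, 66.1 and 69.2 CPM. The groups did not overlap (log2 change -0.32, SE 0.0798, adjusted p = 0.00625), and the call was lost without full medium replicate 3 (-0.23). It held 70.7, 72.8 and 78.8 CPM at 0.12 mM, 72.1, 74.5 and 74.7 CPM at 0.20 mM, and 72.3, 77 and 78.8 CPM at 0.28 mM. At 0.12 and 0.20 mM it passed without full medium replicate 2 (-0.28 and -0.28).

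TARS2, the mitochondrial threonine enzyme, fell at 0.04 and 0.20 mM (ENSG00000143374, chr1:150487419-150507602, plus strand). It measured 68.6, 53 and 77.3 CPM in full medium, 54.4, 48.7 and 57 CPM at 0.04 mM, 53.7, 54.6 and 60.6 CPM at 0.12 mM, 55, 49.5 and 56 CPM at 0.20 mM, and 58, 53.2 and 60.3 CPM at 0.28 mM. Full medium replicate 2 lay among the limited libraries, so the groups overlapped throughout. Log2 changes were -0.30 at 0.04 mM (SE 0.087, adjusted p = 0.018) and -0.30 at 0.20 mM (SE 0.0832, adjusted p = 0.014). The first call was lost without replicate 1, 2 or 3 at 0.04 mM (-0.31, -0.31 and -0.29) or full medium replicate 1 or 3 (-0.27 and -0.23). The second was lost without 0.20 mM replicate 3 (-0.28) or full medium replicate 1 or 3 (-0.27 and -0.23). At 0.12 mM TARS2 passed without full medium replicate 2 (-0.33).

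**Figure D2:**
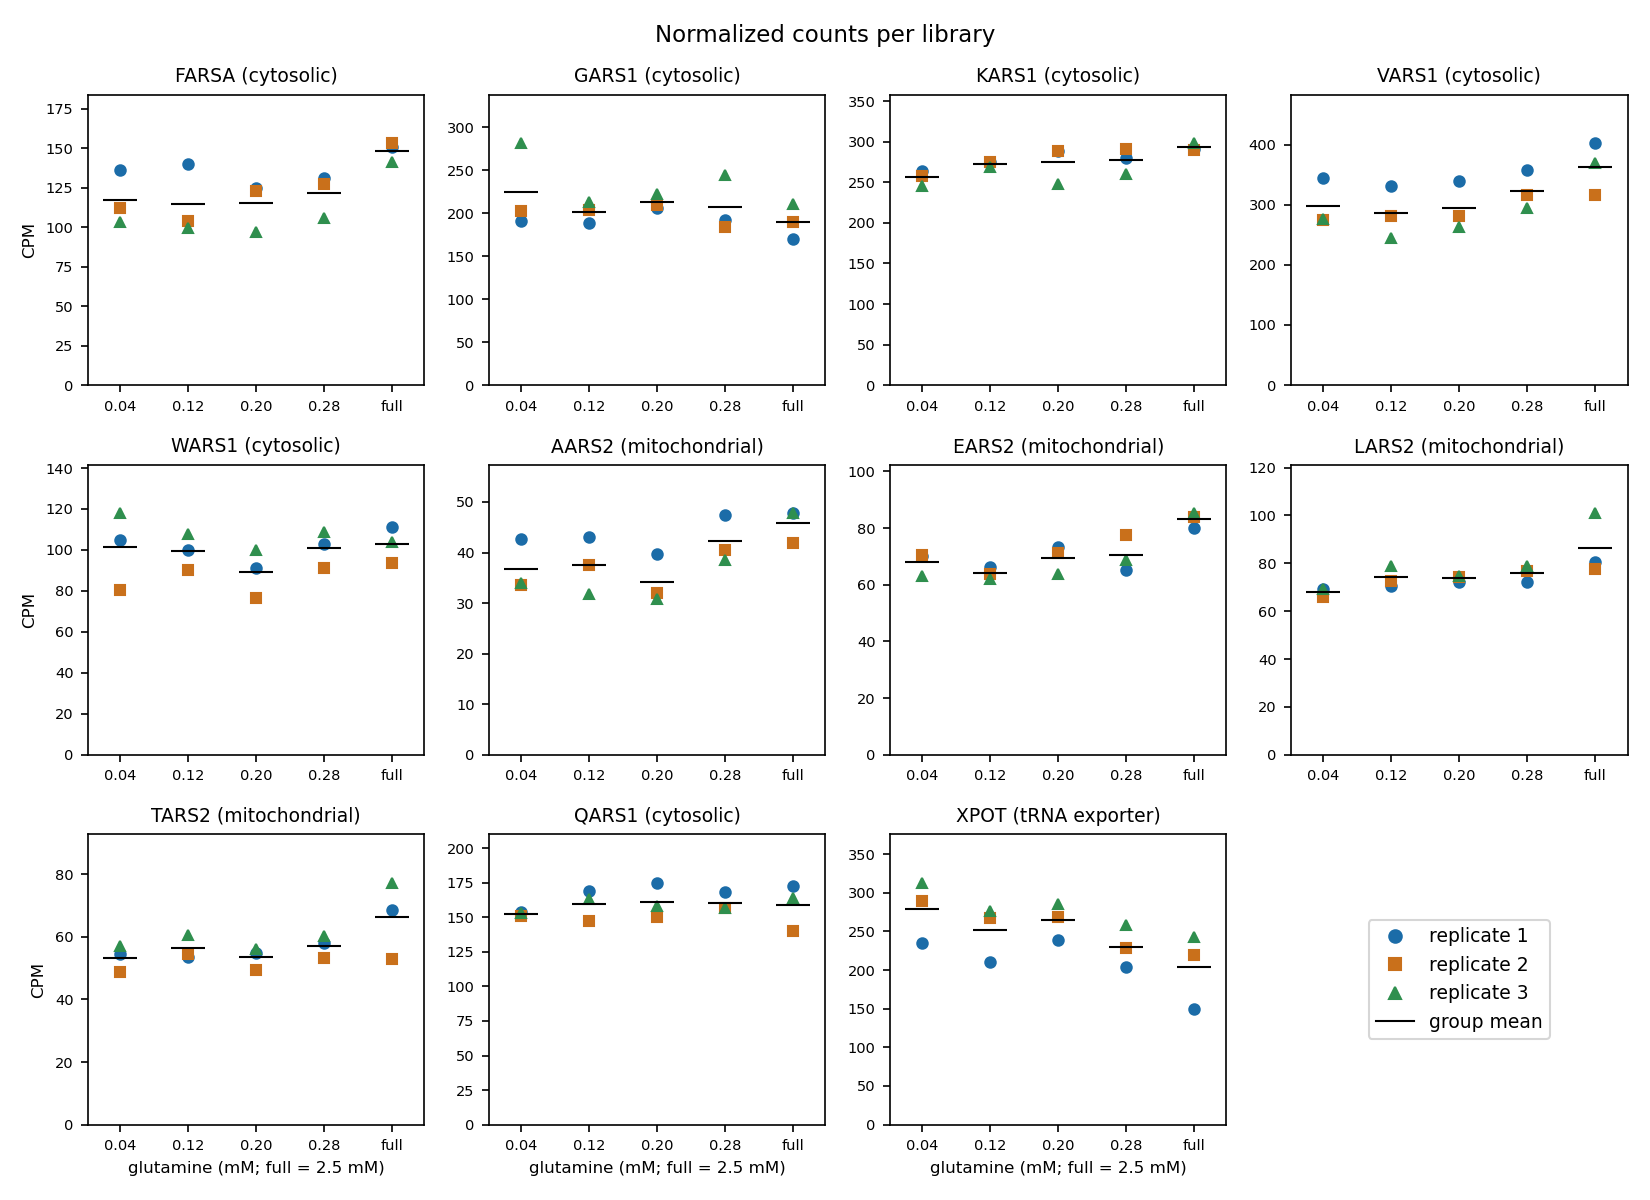
CPM (y axis, from 0) of the 9 members with a call, QARS1 and the tRNA exporter gene XPOT in every library, by glutamine concentration (x axis), with marker shape for replicate number and a line for the group mean. FARSA and EARS2 lie below full medium in all 12 limited libraries, while VARS1 and XPOT keep the order of replicate numbers within most groups.

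In these 5 members the replicate 3 pair differed most. In the pair of replicate 3 libraries, the log2 difference at 0.04 mM was -0.45 for FARSA, -0.42 for VARS1, -0.43 for EARS2, -0.54 for LARS2 and -0.49 for AARS2. The replicate 1 pair gave -0.15, -0.23, -0.19, -0.22 and -0.16 in the same order, and replicate 2 gave -0.44, -0.21, -0.25, -0.23 and -0.32. Replicate 3 at 0.04 mM is also the shallowest library and the 1 with the most mitochondrial rRNA. Without replicate 3 in any group, the numbers of members called were 1 at 0.04 mM (IARS2, which rose by 0.29), 0 at 0.12 mM, 1 at 0.20 mM (WARS1, which fell) and 0 at 0.28 mM. All genes called in those fits numbered 985, 455, 978 and 1. The log2 changes of FARSA were then -0.28, -0.31, -0.28 and -0.23, those of VARS1 at the first 3 concentrations -0.21, -0.22 and -0.20, and those of EARS2 -0.21, -0.32 and -0.17. The part of depth or mitochondrial rRNA in these differences was not tested. With the 2 libraries over 1% mitochondrial rRNA left out, FARSA, VARS1 and LARS2 fell at 0.04 mM, and FARSA, VARS1 and EARS2 at 0.12 mM.

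Cytosolic and mitochondrial classes were compared by counts and medians. At 0.04 mM, 3 of 19 cytosolic genes fell and 1 rose, and 4 of 16 mitochondrial genes fell and 0 rose. For all tested genes the shares were 6.23% for falls and 7.21% for rises. From the lowest to the highest concentration, the cytosolic class had median log2 changes of -0.02, -0.03, 0.01 and 0.02. The mitochondrial class had medians of -0.06, 0.00563, -0.00139 and -0.02. The medians of all tested genes were 0.00635, 0.00472, 0.00328 and 6.75e-05. When single libraries were left out, the cytosolic median at 0.04 mM ran from -0.06 to 0.02 and the mitochondrial one from -0.13 to 0.00118, so neither has a settled direction. Summed CPM of the cytosolic genes was 4120 ± 345 (SD, n = 3) in full medium and 4090 ± 446 at 0.04 mM, and that of the mitochondrial genes 961 ± 106 and 943 ± 46.3. At the other concentrations, in rising order, the cytosolic sums were 3970 ± 184, 4030 ± 50.3 and 4080 ± 269, and the mitochondrial sums 948 ± 54.6, 951 ± 37.8 and 952 ± 65.2. These sums differed between groups by less than the spread among the full medium libraries. The mean log2 CPM of the cytosolic class exceeded that of the mitochondrial class by 2.68 ± 0.0586 in full medium and 2.69 ± 0.12 at 0.04 mM.

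Levels between genes were compared as CPM per kb of exon, a scale that uses the merged exons of GENCODE 29 and understates genes with many alternative exons. The median over the 19 cytosolic genes was 42.3 CPM per kb (mean of 15 libraries each), against 10.6 over the 16 mitochondrial genes and 26.8 over the scaffold genes. EPRS1 was the highest cytosolic gene at 99.8 CPM per kb, followed by KARS1 at 67.6 and IARS1, the isoleucine enzyme, at 60.6. The lowest cytosolic levels were 6.27 for CARS1, 15.5 for WARS1 and 20.6 for HARS1. Among mitochondrial genes IARS2 stood apart at 83.9 CPM per kb, above YARS2, the tyrosine enzyme, at 18.6 and RARS2, the arginine enzyme, at 15.5. PARS2, the proline enzyme, measured 3.39, SARS2, the serine enzyme, 0.522, and VARS2, the valine enzyme, 0.126. SARS2 had only 7 to 30 counts per library and VARS2 2 to 17, and other genes overlap 57% and 22% of their exonic length, so both levels are uncertain.

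In 15 of 17 pairings of a cytosolic and a mitochondrial gene for the same amino acid, the cytosolic gene had the higher level per kb. The count uses EPRS1 for both glutamate and proline, and FARS2 beside both FARSA and FARSB. It also includes SARS2 and VARS2, whose levels are uncertain. The ratio of cytosolic to mitochondrial level was 8.05 for EPRS1 and EARS2 (5.25 to 12.2 over the libraries), 4.42 for AARS1 and AARS2 (3.76 to 5.6) and 2.97 for LARS1 and LARS2 (2.29 to 3.81). It was smallest among these 15 for YARS1 and YARS2, at 1.3 (0.966 to 1.89), where the order was not the same in every library. The exceptions were CARS1 and CARS2, with a ratio of 0.56 (0.484 to 0.67), and IARS1 and IARS2, with 0.722 (0.585 to 0.871). Both exceptions held in each of the 15 libraries. In some pairs the estimates at 0.04 mM had opposite signs. TARS1 had a log2 change of 0.08 beside -0.30 for TARS2, LARS1 0.10 beside -0.32 for LARS2, and EPRS1 0.12 beside -0.28 for EARS2. In phenylalanine the order was the opposite, with -0.34 for FARSA and 0.07 for FARS2. Each of these pairs holds a called gene. Some other pairs had estimates of the same sign at 0.04 mM. Among them were HARS1 and HARS2 (-0.17 and -0.13), CARS1 and CARS2 (0.20 and 0.14), and YARS1 and YARS2 (-0.07 and -0.08). None of these genes passed there with all libraries. Exons of HARS1 and HARS2 overlap on opposite strands, and other genes overlap 8.4% and 15.8% of their exonic length, so their likeness is uncertain. Differences within pairs were not tested.

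**Figure D3:**
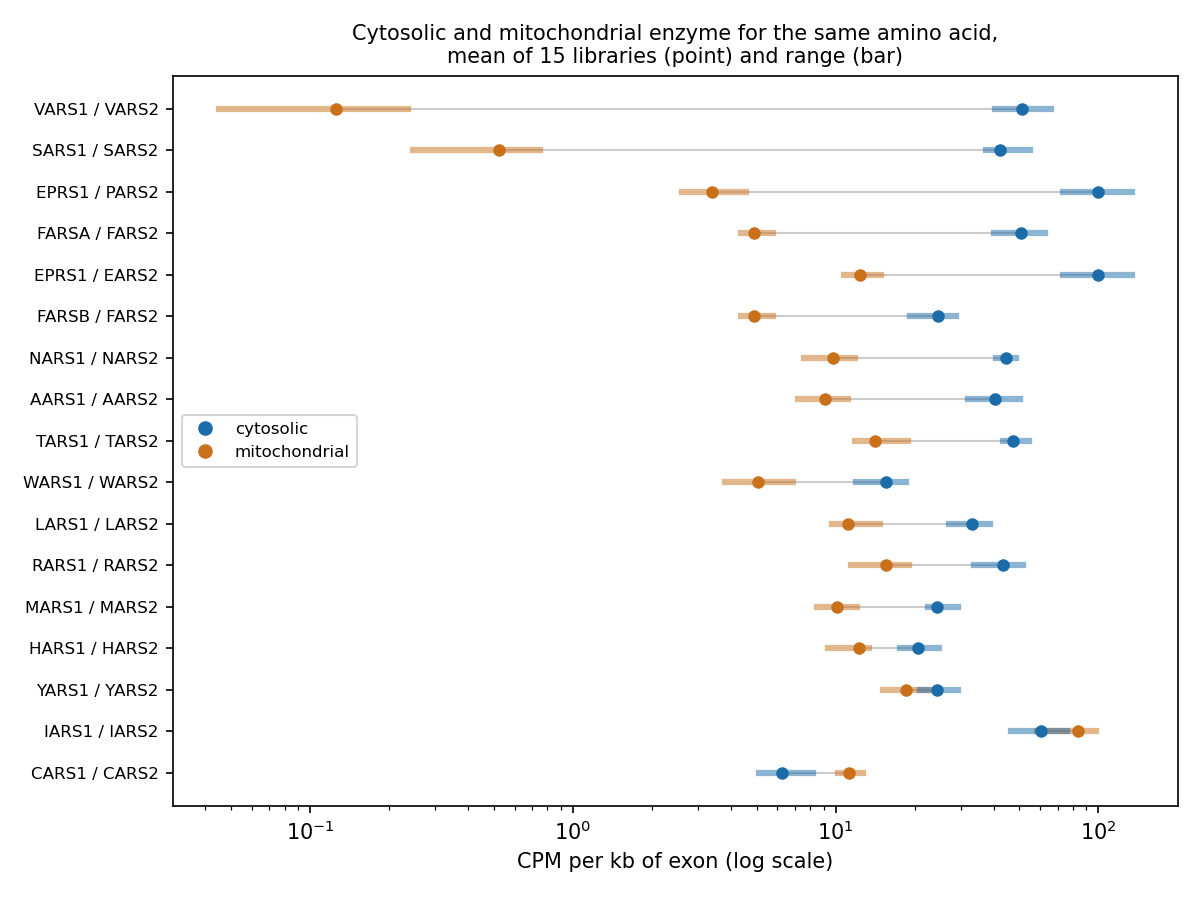
Level in CPM per kb of exon (x axis, log scale) of cytosolic and mitochondrial synthetase genes for the same amino acid (y axis, ordered by ratio), with a point for the mean of 15 libraries and a bar for their range. The cytosolic gene is higher in all pairs but CARS1 with CARS2 and IARS1 with IARS2, and the VARS2 and SARS2 levels rest on few counts.

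For most members replicate number held more of the variance than glutamine. Over the 15 libraries, the median share of log2 CPM variance between replicate numbers was 63.1% in the cytosolic and 35.6% in the mitochondrial class. The median share between glutamine groups was 17.8% and 28%. For all tested genes the median shares were 36.7% between replicate numbers and 24% between groups. A split into 5 groups takes up more variance by itself than 1 into 3 numbers, so the shares are not directly comparable. Replicate numbers held the larger share in 17 of 19 cytosolic and 8 of 16 mitochondrial genes, and in 60.3% of all tested genes. IARS1 was at the far end, with 89.9% between replicate numbers and 1.63% between groups. Its libraries ran from 344 to 406 CPM in replicate 1 and from 504 to 562 CPM in replicate 3. EPRS1 followed with 82.4% and 4.07%. KARS1 was the reverse (23.6% and 51.7%), as was LARS2 (18.5% and 61.6%). The members' share of all gene counts was 0.453 to 0.492% in the replicate 1 libraries, 0.496 to 0.521% in replicate 2 and 0.537 to 0.59% in replicate 3.

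**Figure D4:**
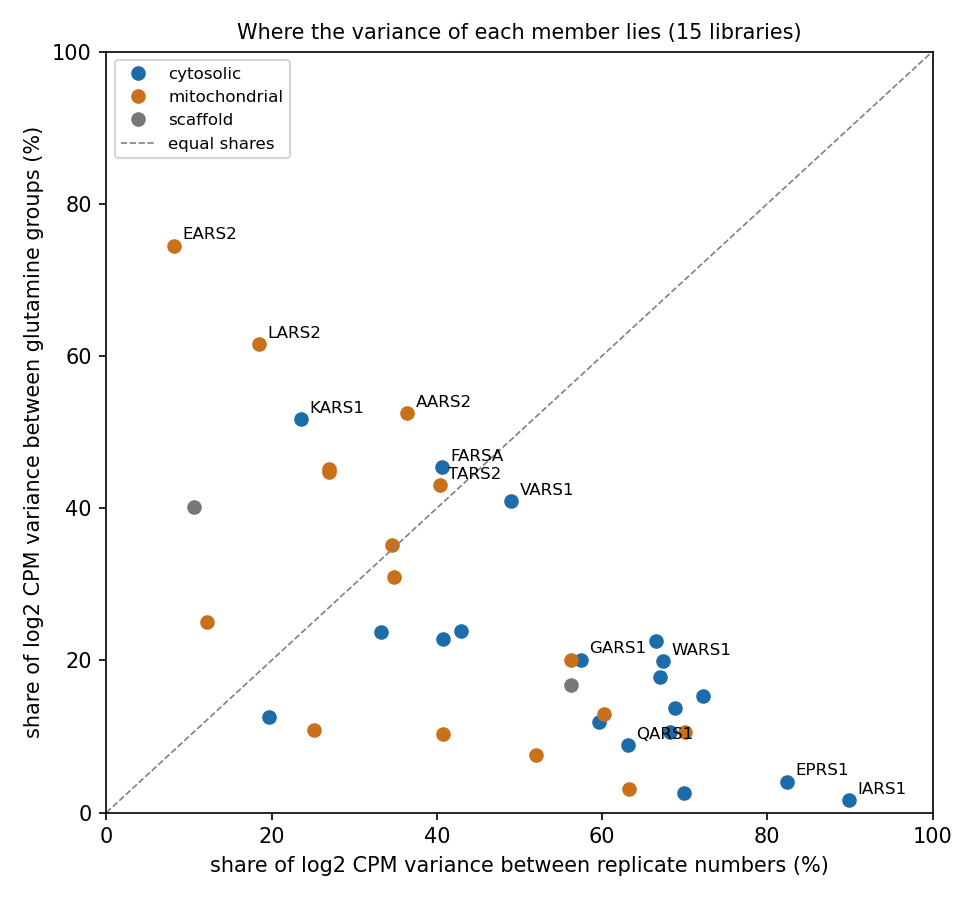
Share of the variance of log2 CPM that lies between the 3 replicate numbers (x axis, %) and between the 5 glutamine groups (y axis, %) for each of the 37 genes over 15 libraries. EARS2 (8.15% and 74.5%) and IARS1 (89.9% and 1.63%) mark the ends, and most cytosolic genes lie below the line of equal shares.

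Because the amino acid response acts through short promoter elements, RefSeq promoter windows (GRCh38.p14, 250 bases before to 50 after each transcript start) were searched on both strands. Windows were found for 32 of the 37 members, 44 windows in all, and LARS1, VARS1, YARS1, AARS2 and VARS2 had none. The C/EBP-ATF composite element, TGATGNAAN, occurred in 7 of 16 cytosolic genes (43.8%), 1 of 14 mitochondrial genes (7.14%) and 0 of 2 scaffold genes, against 4.45% of the 27305 genes of the table. The form TTGCATCA, which overlaps the first motif wherever it occurs, was in 6 of the 16 cytosolic (37.5%) and 0 mitochondrial genes, against 1.08% of all. The 8 matches are shown with 10 bases on each side, read along the gene, with the match in capitals, because they are what these promoters share.
AARS1: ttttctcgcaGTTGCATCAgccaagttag
CARS1: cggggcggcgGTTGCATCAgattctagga
GARS1: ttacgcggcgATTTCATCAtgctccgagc
IARS1: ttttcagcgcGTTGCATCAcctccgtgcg
MARS1: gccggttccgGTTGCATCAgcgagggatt
NARS1: ctacgctctcTGATGCAACgccggaatcg
TARS1: gcgcctttcgATTGCATCAgctggtccag
YARS2: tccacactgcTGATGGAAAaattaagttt
These stretches are at chr16:70289676-70289704 (AARS1, minus strand), chr11:3057408-3057436 (CARS1, minus), chr7:30594834-30594862 (GARS1, plus), chr9:92293693-92293721 (IARS1, minus), chr12:57488053-57488081 (MARS1, plus), chr18:57621804-57621832 (NARS1, minus), chr5:33440956-33440984 (TARS1, plus) and chr12:32756076-32756104 (YARS2, minus). In CARS1, IARS1, MARS1, NARS1 and TARS1 the match begins within 15 bases of a transcript start, in GARS1 34 bases before the downstream of its starts, and in AARS1 188 bases before its start. CARS1, GARS1 and TARS1 each have a further window without the match. At 0.04 mM the 7 cytosolic genes with this match had 1 rise (GARS1) and 0 falls, with log2 changes from -0.14 to 0.22 and a median of 0.07. The 9 with a window and no match had 0 rises and 2 falls (FARSA and KARS1), from -0.34 to 0.12 with a median of -0.05. At the other concentrations, in rising order, the median was -0.03, 0.02 and 0.03 with the match and -0.03, -0.02 and -0.04 without it. There the first set had 0 calls, and the second had 0 rises and 1, 2 and 1 falls. The 13 cytosolic genes listed from general knowledge as amino acid response genes had 1 rise and 1 fall at 0.04 mM (median 0.04). The other 6 had 0 rises and 2 falls (median -0.11). Of all tested genes 7.21% rose and 6.23% fell at 0.04 mM, and 3.9%, 7.15% and 0.846% fell at the other concentrations. These small sets were not compared by a test.

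Other promoter motifs were spread differently over the classes. CCGGAAG, the core read by ETS factors, was in 9 of 16 cytosolic (56.2%) and 7 of 14 mitochondrial genes (50%), against 12.2% of all genes. GCGCATGC, the core of the NRF1 site, was in MARS2 and YARS2 among the 14 mitochondrial genes (14.3%), in 0 cytosolic genes and in 3.68% of all. CACGTG, the E-box, was in IARS1, CARS2, EARS2, MARS2 and AIMP2, against 8.77% of all genes. EARS2, the mitochondrial member with the most calls, holds an ETS core and an E-box within 30 bases at chr16:23557360-23557389, minus strand, shown with both motifs in capitals.
EARS2: CCGGAAGtgacgcagggagaagccCACGTG
RefSeq gives EARS2 a pair of transcript starts. The ETS core begins 39 bases and the E-box 15 bases before the downstream start, and counted from the upstream start the ETS core begins 14 bases before it and the E-box at base 11 after it. FARSA had none of the 5 motifs in its window. HARS1 and HARS2, the cytosolic and mitochondrial histidine genes, lie head to head, and their windows share 184 bases (chr5:140691321-140691504) with 2 matches to CCGGAAG. Neither gene passed at 0.04 mM, with log2 changes of -0.17 and -0.13.

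Among genes that serve tRNAs around the synthetases, XPOT, the nuclear export receptor of tRNA, rose at 3 concentrations. It measured 149, 220 and 243 CPM in full medium, 235, 289 and 313 CPM at 0.04 mM, 210, 267 and 277 CPM at 0.12 mM, 239, 269 and 286 CPM at 0.20 mM, and 204, 229 and 258 CPM at 0.28 mM. Replicate 1 was lowest and replicate 3 highest in every group, so the groups overlapped, while each limited library was above the full medium library of its number. Log2 changes were 0.47 at 0.04 mM (SE 0.0714, adjusted p = 5.06e-05), 0.32 at 0.12 mM (SE 0.0709, adjusted p = 0.00441), 0.40 at 0.20 mM (SE 0.0705, adjusted p = 0.000291) and 0.20 at 0.28 mM, where it did not pass (SE 0.0707, adjusted p = 0.147). No single library ended the 3 calls. The change at 0.12 mM ran from 0.21 to 0.38 over those omissions, with the lowest value without full medium replicate 1. Under spike-in scaling the calls at 0.12 mM (0.14) and 0.20 mM (0.35) were lost, and fitted with 2 groups only the call at 0.12 mM (0.32). Without the replicate term the adjusted p of these 3 changes was 0.286, 0.674 and 0.456.

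The calls at 0.04 mM of the other named tRNA genes were all lost under spike-in scaling, with the direction unchanged. Of 7 tested genes for tRNA export and delivery, XPOT rose and TUFM and EEF1D fell at 0.04 mM. Among all tested genes 7.21% rose and 6.23% fell at this concentration. TUFM, the mitochondrial elongation factor that brings charged tRNA to the ribosome, changed by -0.20 (SE 0.0609, adjusted p = 0.0295), a call lost without 0.04 mM replicate 2 or 3 or full medium replicate 3 (-0.19, -0.17 and -0.17). EEF1D, a subunit of the cytosolic exchange factor, changed by -0.23 (SE 0.0713, adjusted p = 0.0317). That call was lost without replicate 1, 2 or 3 at 0.04 mM (-0.24, -0.20 and -0.25) or full medium replicate 2 (-0.18), and EEF1D is uncertain because other genes overlap 34% of its exonic length. Of 11 accessory genes SEPHS1 fell at 0.04 mM (-0.30, SE 0.0711, adjusted p = 0.00458) and 0 rose. No single omission ended that call, but it was lost without replicate 3 in all groups (-0.22). SEPHS1 measured 118, 121 and 118 CPM in full medium and 106, 97.9 and 85.4 CPM at 0.04 mM.

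Genes of tRNA maturation had falls and no rises. Of 47 tested tRNA maturation genes, 7 fell and 0 rose at 0.04 mM, and 41 had a negative estimate, with a median log2 change of -0.14 against 0.00635 for all genes, of which 6.23% fell and 7.21% rose. At the other concentrations, in rising order, 5, 4 and 1 of the 47 fell and 0 rose, beside falls in 3.9%, 7.15% and 0.846% of all genes. The count at 0.20 mM is near that background. ELAC2, which trims the 3′ end of tRNA precursors, fell at 0.04 mM from 200, 189 and 173 CPM to 168, 147 and 133 CPM (log2 change -0.33, SE 0.0645, adjusted p = 0.000735), and no single omission ended that call, nor did leaving out replicate 3 in all groups. The calls of POP4 (-0.37) and RTCB (-0.22) at 0.04 mM were lost in that fit, as were those of TUFM (-0.15), GTF3A (-0.21), GTF3C5 (-0.12) and GTF3C3 (0.34). POP4, a subunit of RNase P, which cuts the 5′ end, changed by -0.40 at 0.04 mM (SE 0.102, adjusted p = 0.00736), a call lost without full medium replicate 2 (-0.34). RTCB, the tRNA splicing ligase, changed by -0.26 (SE 0.0725, adjusted p = 0.0147), a call lost without 0.04 mM replicate 2 or full medium replicate 2 or 3 (-0.23, -0.22 and -0.23). Among the transcription factors of RNA polymerase III, GTF3C3, a TFIIIC subunit, rose at 0.04 mM by 0.35 (SE 0.0945, adjusted p = 0.0116), a call lost without 0.04 mM replicate 2 or 3 (0.32 and 0.31). GTF3A, which is TFIIIA, changed by -0.24 (adjusted p = 0.0277) and passed neither without 0.04 mM replicate 2 or 3 (-0.16 and -0.24) nor without full medium replicate 2 or 3 (-0.18 and -0.21). GTF3C5 changed by -0.25 (adjusted p = 0.0477) and lost its call when 0.04 mM replicate 2 or 3 (-0.26 and -0.17) or full medium replicate 1 or 3 (-0.25 and -0.18) was omitted, and under DESeq2 (-0.24).

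Within the 4 limited groups, no member passed for a trend with glutamine concentration. A slope over log2 concentration, fitted in the 12 limited libraries, called 0 of 37 members in either direction and 0% of all genes in edgeR, with and without the replicate term. DESeq2 with the term called 0 members and 24 of all genes, and edgeR with the term and no filter on low counts 0 members and 34 of all genes. At an unadjusted p under 0.05 without the replicate term, 0 members and 306 of all genes were found. Median slopes per doubling of glutamine were -0.00056 in the cytosolic and 0.02 in the mitochondrial class. The slope was 0.01 for FARSA, 0.03 for VARS1 and 0.02 for EARS2.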

How the data were processed

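The authors deposited 1 table of raw read counts per gene for 15 total RNA libraries prepared after ribosomal RNA depletion with ERCC spike-ins added, per the labels' protocols. The submitters' processing notes name hg38 and GRCh38.p14, and neither aligner, counter nor strand rule is given in the sources used here. The table holds 62754 genes, of which 42343 have a symbol, and 92 spike-ins. Spike-ins stayed out of library totals. Gene counts per library were 3704170 to 13361406, and small counts (SARS2, VARS2) limit precision most.

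Genes were filtered with edgeR's filterByExpr (minimum count 10, total 15), scaled by TMM and fitted over all 15 libraries with edgeR 4.0.16's quasi-likelihood test in R 4.3.3. P-values were adjusted by Benjamini and Hochberg over 13828 genes, with a threshold of 0.05. The planned design had no replicate term. Replicate numbers come from the labels, which do not say what they mark. Over all tested genes, deviations from group means correlated at 0.184 to 0.489 in all 30 same-numbered pairs of libraries. Values with the replicate number as a block are therefore given. In the members alone these 30 pairs ran from -0.343 to 0.799, with 26 over 0.1. The 75 other pairs gave -0.647 to 0.0549 over all tested genes. Deviations cancel out within a group, which pushes those values down, so they are no separate support for the block. CPM values and 95% intervals were computed here from the counts. The p-values of the calls measure the spread left between these libraries after differences between replicate numbers are removed. Scripts were tested on simulated data.

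Values of every library are given for members called in any comparison, for QARS1, EARS2, QRSL1, GATB, GATC and XPOT. Also named were the 3 highest and 3 lowest members of each class per length, the first and last of each class by change at 0.04 mM, and up to 3 called genes of each partner list in each direction at 0.04 mM. FARSB and further members were named after their values were seen. A result of the tRNA transcription list is not reported here. The members and lists were chosen with earlier results of these data known. Exon lengths and overlaps are from GENCODE 29, and gene positions and promoters from RefSeq (GRCh38.p14). Alternatives were DESeq2 1.42.0, its size factors, spike-in scaling, other filters, fits of 2 groups, and omission of libraries.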

Additional observations from a re-analysis of the deposited data

How the results depend on the processing

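The replicate block decided every call: with it 8, 3, 6 and 1 members were called at the 4 concentrations in rising order, and without it 0 in each, by edgeR and by DESeq2. With the block, DESeq2 and its size factors called the same members as edgeR. The following values are all with the block, and the cause of each difference was not tested. Scaling to spike-ins gave 0, 6, 2 and 0 members and moved the median of all genes to 0.000475, -0.18, -0.04 and -0.13. The class medians were then -0.22 (cytosolic) and -0.18 (mitochondrial) at 0.12 mM, and -0.11 and -0.14 at 0.28 mM. Fitting only the 2 groups compared gave 3 members at 0.04 mM. A slope over all 15 libraries, full medium included, called 7 members (FARSA, KARS1, VARS1, AARS2, EARS2, LARS2 and TARS2, higher with more glutamine) and 2163 of all genes, against 0 within the limited groups. Without replicate 3 in any group, 1, 0, 1 and 0 members were called, and the cytosolic median at 0.12 mM was -0.00954. Without the libraries high in mitochondrial rRNA, 3 members were called at 0.04 mM. Leaving out single libraries gave 3 to 9, 3 to 5, 3 to 8 and 0 to 1 members. Over those omissions the cytosolic median ran from -0.0553 to 0.0228, -0.0627 to -0.024, -0.0354 to 0.0336 and -0.0292 to 0.0214, with -0.0572 at 0.12 mM without replicate 2 there, and the mitochondrial one from -0.129 to 0.00118, -0.0342 to 0.0577, -0.0681 to 0.0309 and -0.0536 to 0.0472, with 0.0365 at 0.28 mM without replicate 2 there. No value of a named gene turned its direction while called. Depth limits SARS2 and VARS2 most, and 3 libraries a group limit every comparison.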
